A study of Mus musculus with 8 samples.

Results

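The messenger RNAs (mRNAs) of the cytosolic ribosomal proteins were followed in nuclear RNA of mouse embryonic stem cells that had lost Mettl14 or Mettl3. Members were the protein-coding genes whose symbol is Rpl or Rps plus digits, with an optional a, x or l at the end, together with Rplp0, Rplp1, Rplp2 and Rpsa. This rule found 80 of the 54446 genes in the files, 49 of the large and 31 of the small ribosomal subunit, and all 80 passed the filter on low counts that left 21782 genes for testing. The groups were Mettl14 conditional knockout (cKO), Mettl14 control, Mettl3 cKO and Mettl3 control, with 2 libraries each. All were C57BL/6 embryonic stem cells grown in serum with LIF, a cytokine that keeps them undifferentiated, the GSK3 inhibitor CHIR99021 and the MEK inhibitor PD0325901. RNA was taken from the nuclear fraction, depleted of ribosomal RNA and made into total-RNA libraries. Nothing in the labels says how or when the genes were deleted, which exons were lost, how many clones a line holds, or whether the 2 samples of a group were separate cultures, so the p-values rest on differences among these samples that may be technical only.

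The enzyme METTL3 and its RNA-binding partner METTL14 together place N6-methyladenosine (m6A) on RNA. Each mammalian ribosome holds a fixed set of ribosomal proteins, which are made in the cytoplasm, imported into the nucleus and assembled on ribosomal RNA in the nucleolus. Their genes are short, strongly expressed and made as a coordinated set. Their mRNAs start with a 5′ terminal oligopyrimidine (TOP) tract, an unbroken run of C and U at the cap through which growth signals and the protein LARP1 control translation, and many of their introns hold small nucleolar RNAs (snoRNAs), which guide the modification of ribosomal RNA.

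The sequences around the annotated transcription start are shown because the TOP tract is the sequence feature that members are known for. They are from the RefSeq promoter table (build GRCm38.p6), which held 72 starts of 60 members. Each shows the last 12 bases before the start and the first 12 bases from the start, 5′ to 3′ on the transcribed strand. Capitals mark an unbroken run of at least 8 C or T bases that reaches within 5 bases of the start. The first 6 genes are members with low or high changes in Mettl14 cKO, and the last 3 are 2 proteins of the ribosomal stalk and Rpsa.
Rpl28 (chr7:4792953-4792976, + strand): cctctcgtgTCTCTCTTTCCgtct
Rpl14 (chr9:120571505-120571528, + strand): cgggCCCTCTCTCTTCTCgctgag
Rpl26 (chr11:68901554-68901577, + strand): gcggcaacttacagaaccggaagt
Rpl10l (chr12:66284390-66284413, - strand): ggcctccattttgcggctggcggt
Rps10 (chr17:27635233-27635256, - strand): ccgcgcacgCCCCTTCCTTTCCag
Rpl27a (chr7:109519183-109519206, + strand): ttcgtgagCTCCTCCCTTTTCCCT
Rplp0 (chr5:115559455-115559478, + strand): ttcgggtttcgaggaccgcctggt
Rplp2 (chr7:141447639-141447662, + strand): gtcagcgTCTTCCTTTCgccgccg
Rpsa (chr9:120127754-120127777, + strand): ggttatttaaggacgtcatttccg

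Such a run was present at 23 of the 72 member starts (31.9%), against 3081 of all 32851 starts in the table (9.38%). On the opposite strand the same search found it at 3 member starts (4.17%), against 3419 of all starts (10.4%). Annotated starts can lie some bases off the base where transcription begins, and a start with no run in these letters says nothing about its mRNA. The run was found both in Rpl28 and Rpl14, which fell most in Mettl14 cKO, and in Rps10 and Rpl27a, which rose. The median log2 change in Mettl14 cKO was -0.38 over the 23 members with a run and -0.27 over the 37 members of the table without.

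The libraries held 17235889 to 20086128 counted reads, and levels are given as CPM, the count scaled by the TMM-adjusted library size. The deleted genes were checked first. Mettl14 had 27.8 and 30.2 CPM in Mettl14 cKO, against 58.3 and 55.0 CPM in Mettl14 control, and Mettl3 had 19.8 and 18.6 CPM in Mettl3 cKO, against 37.9 and 36.1 CPM in Mettl3 control. Each cKO thus kept 51.3% (Mettl14) and 51.9% (Mettl3) of its control's level, and gene counts do not tell undeleted cells from transcripts that lack some exons. Mettl14 also stood at only 30.1 and 26.7 CPM in Mettl3 control, near its level in Mettl14 cKO. The 9 embryonic stem cell markers (among them Pou5f1, Sox2 and Nanog) were present in every group, none at 0. Their summed level was 1750 and 1754 CPM in Mettl14 cKO, 2501 and 2495 in Mettl14 control, 846 and 844 in Mettl3 cKO, and 903 and 908 in Mettl3 control. The 19 fibroblast markers (collagens and other matrix genes), none at 0, summed to 1646 and 1649, 807 and 803, 7926 and 7838, and 6703 and 6496 CPM in the same order of groups. In the Mettl3 line the fibroblast markers thus exceeded the stem cell markers, although the labels name embryonic stem cells alone.

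Ribosomal protein mRNAs took 2.43% and 2.42% of all counts in Mettl14 cKO, against 2.96% and 2.96% in Mettl14 control. They took 1.49% and 1.49% in Mettl3 cKO, against 1.54% and 1.51% in Mettl3 control. The Mettl14 libraries of either genotype lay above all Mettl3 libraries, and within both lines the cKO lay below its control, by much more in the Mettl14 line. As a ratio of mean shares this was 0.821 for Mettl14 cKO over its control, 0.977 for Mettl3 cKO over its control, and 1.94 for Mettl14 control over Mettl3 control. The large subunit had ratios of 0.79, 0.977 and 2.12, and the small subunit 0.879, 0.978 and 1.68. These shares involve no scaling between libraries and were not tested. In such bulk RNA, fewer cells of a type and less of an RNA per cell cannot be told apart.

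**Figure D1:**
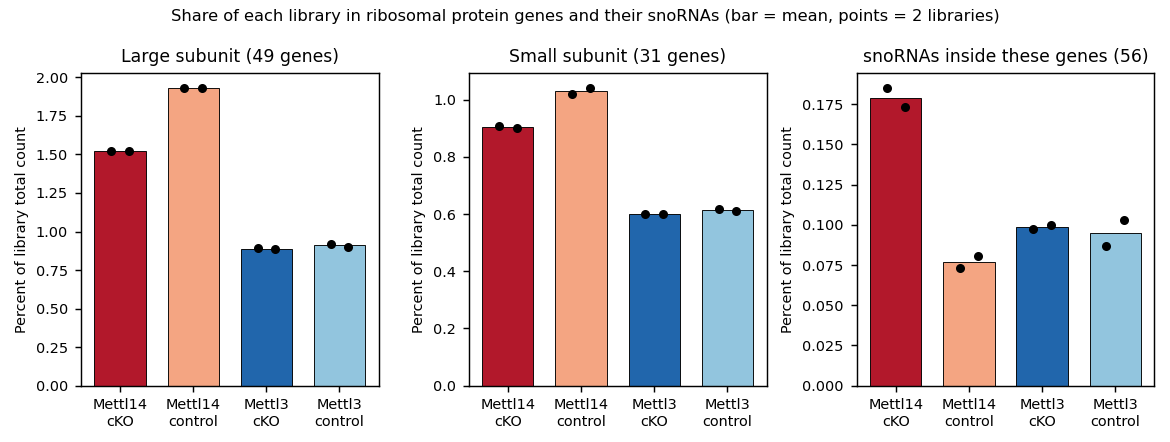
Percent of each library's total count in large subunit genes, small subunit genes and the snoRNAs inside them, for Mettl14 cKO, Mettl14 control, Mettl3 cKO and Mettl3 control; bars are means and points the 2 libraries. The large subunit share was 1.52% in both Mettl14 cKO libraries, against 1.93% in both Mettl14 control libraries, while the snoRNA share was 0.185% and 0.173%, against 0.073% and 0.0808%.

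Per kilobase of annotated exon, Rplp1, an acidic protein of the stalk that recruits translation factors to the ribosome, had the highest mean level of the large subunit genes in every group. It had 1280 CPM per kilobase in Mettl14 cKO, 1660 in Mettl14 control, 848 in Mettl3 cKO and 629 in Mettl3 control. Rplp0, the stalk's anchor, had 810, 1060, 357 and 295 CPM per kilobase in the same order. Of the small subunit genes, Rpsa, which is needed for assembly of the small subunit, and Rps23, a protein of the decoding centre, led in every group. Rpsa had 386 CPM per kilobase in Mettl14 cKO and 698 in Mettl14 control, and Rps23 had 407 and 562. The lowest small subunit gene was Rps10, with 9.0, 6.16, 7.89 and 7.34 CPM per kilobase in the 4 groups. The lowest of the large subunit were Rpl24 and the paralogs Rpl39l and Rpl3l, known in mammals from testis and from skeletal and cardiac muscle. Rpl24, at 1.66 to 2.63 CPM over the libraries, is not a paralog of this kind. Whether its reads were lost in the counting was not tested. Exon lengths include annotated retained introns, which 62 members have, so their reads are spread over intron bases as well.

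In Mettl14 cKO most ribosomal protein mRNAs fell. Of 80 members, 65 were called lower, at a background of 22.4% of all tested genes, and 2 were called higher, at a background of 18.0% (edgeR's quasi-likelihood test, Benjamini-Hochberg adjusted p under 0.05). The median log2 change was -0.37, with the middle members between -0.56 and -0.19, while the median of all tested genes was 0.03. The large subunit had 42 of 49 lower and 1 higher with a median of -0.47, and the small subunit 23 of 31 lower and 1 higher with a median of -0.26. Of the 69 members whose average log2 CPM reached 6, 60 were called lower, with a median of -0.38. Abundant genes in general fell often as well: of all 3349 tested genes at that level 55.6% were called lower, with a median of -0.14. The number of members called lower was 62 to 66 under every alternative tried, and 62 of the 65 were called under each of them, the exceptions being Rps15, Rps19 and Rps20. Stem cell markers were lower in Mettl14 cKO and fibroblast markers higher, as given above, and their part in these changes was not tested.

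The lowest changes were found in proteins from several parts of the ribosome. Rpl28, a protein of the large subunit that bacteria lack, had 24.0 and 26.7 CPM in Mettl14 cKO, against 62.9 and 67.0 CPM in Mettl14 control. Rpl14, which lies on the surface of the large subunit, had 168 and 164 CPM, against 394 and 392 CPM. The cKO level was 39.1% of the control level for Rpl28 and 42.3% for Rpl14, and the groups did not overlap. How many of all tested genes separate in this way, with 2 libraries per group, was not counted, here or for the genes below. The log2 changes were -1.35 ± 0.07 (SE, adjusted p = 1.88e-40) for Rpl28 and -1.24 ± 0.03 (adjusted p = 2.42e-56) for Rpl14 (edgeR's quasi-likelihood test, Benjamini-Hochberg). Exons of Rpl28 overlap Ube2s on the opposite strand, and as the strand setting of the counting is not given in the sources used here, its reads may include those of Ube2s.

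Rpl26, which lies beside the exit of the tunnel through which the new protein leaves, had 668 and 682 CPM in Mettl14 cKO, against 1365 and 1336 CPM in Mettl14 control. Rpl21 had 192 and 201 CPM, against 392 and 389 CPM. The cKO level of Rpl21 was 50.4% of the control level, with no overlap between the groups for either gene, and the log2 changes were -1.0 ± 0.02 and -0.99 ± 0.03 (SE). In all, 4 members were at least 2-fold lower, Rpl28, Rpl14 and Rpl26 among them, and none was 2-fold higher. The share of all tested genes with a change of that size was not counted.

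Rpsa and Rpl5, which are among the 5 members with most reads in both groups, fell as well. Rpsa had 1216 and 1231 CPM in Mettl14 cKO, against 2229 and 2199 CPM in Mettl14 control (log2 change -0.86 ± 0.02, SE). Rpl5, which with Rpl11 carries the 5S ribosomal RNA and holds the p53 regulator MDM2 when assembly is disturbed, had 1160 and 1124 CPM, against 2091 and 2048 CPM (-0.86 ± 0.03). Rpl11 had 158 and 160 CPM, against 236 and 243 CPM (-0.59 ± 0.04). All 3 were lower in both cKO libraries than in either control library. The 5 members with most reads held 22.3% of all member counts in Mettl14 cKO and 25.4% in Mettl14 control. Exons of Rpl5 overlap Fam69a on the opposite strand.

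**Figure D2:**
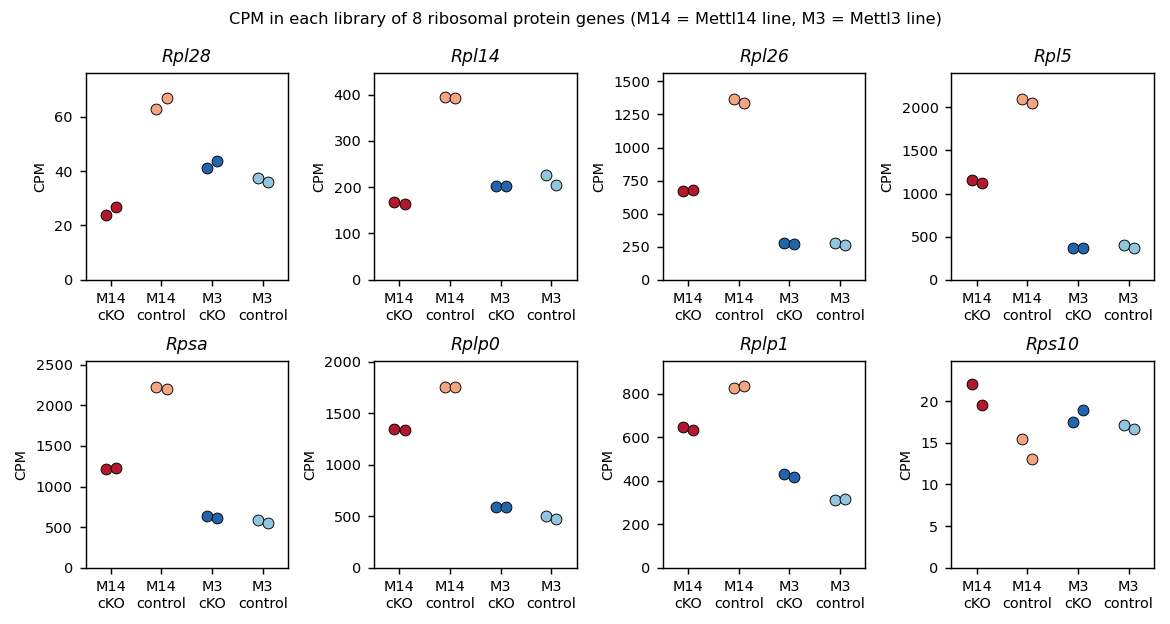
CPM in each library (points) of 8 ribosomal protein genes in Mettl14 cKO, Mettl14 control, Mettl3 cKO and Mettl3 control; each vertical axis starts at 0. Rpl26 had 668 and 682 CPM in Mettl14 cKO, against 1365 and 1336 CPM in Mettl14 control, while the 4 libraries of the Mettl3 line lay between 262 and 278 CPM.

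The members that did not fall were few. Rps10, a protein of the small subunit's head that is ubiquitinated when ribosomes stall, rose to 22.1 and 19.5 CPM in Mettl14 cKO, against 15.5 and 13.0 CPM in Mettl14 control (log2 change 0.54 ± 0.10, SE; adjusted p = 1.84e-06, edgeR's quasi-likelihood test). Rpl27a had 226 and 222 CPM, against 206 and 207 CPM (0.12 ± 0.03). The rise of Rps10 was called under every alternative tried, and that of Rpl27a was lost with DESeq2 (adjusted p = 0.101) and without Mettl14 control replicate 1 (adjusted p = 0.0638), within a range of 1.53e-06 to 0.101 over its 17 alternatives. Rps3, which lines the entry of the mRNA channel, had 620 and 612 CPM in Mettl14 cKO, against 607 and 612 CPM in Mettl14 control, a log2 change of 0.01 ± 0.03 (SE). Rps9 had 517 and 510 CPM, against 520 and 527 CPM (-0.03 ± 0.03), and Rpl10a had 191 and 196 CPM, against 199 and 190 CPM (-0.01 ± 0.03). These 3 genes did not pass the test, with errors close to those of Rpl26 and Rpsa. Rps13, Rps16, Rps18, Rps12, Rpl30, Rpl37a and Rps27l, the last a p53-induced paralog of Rps27, were not called either. Rpl3l, Rpl24 and Rpl39l were not called, and at 0 to 2.63 CPM in every library their errors were wide.

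In Mettl3 cKO the members hardly moved. The test called 18 higher, at a background of 15.1% of all tested genes, and 7 lower, at a background of 5.78%, and 55 were not called. Among the abundant genes defined above 36.5% were higher and 13.3% lower, against 21.7% and 10.1% of the 69 members at that level. The median log2 change was 0.03, equal to that of all tested genes, and it was below 0 under 3 alternatives (-0.083 with upper-quartile scaling, -0.046 at a minimum count of 50, -0.006 with the 4 libraries of the line alone). The large subunit had 10 higher and 4 lower with a median of 0.02, and the small subunit 8 higher and 3 lower with a median of 0.05. These counts depended on the settings. With upper-quartile scaling 8 were higher and 34 lower, and with no filter on low counts, which also adds genes to the fit and to the adjustment, 49 were higher and 0 lower. Leaving out a library of the Mettl14 line, which is not in this comparison, moved the Mettl3 median as well. It was 0.07 without Mettl14 cKO replicate 1, 0.058 without Mettl14 control replicate 1 and 0.071 without Mettl14 control replicate 2. Each such fit repeated the low-count filter and the scaling on the remaining libraries, with 1 sample left in a group. It is thus no test of the single library alone. The 7 lower became 0 to 3 without any library other than Mettl3 control replicate 2, without which they were 6. Of the 18 members called higher, 8 were called so under every alternative, and of the 7 called lower, 0 were.

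Among those 8 were Rpl10l, Rpl12, Rplp0, Rplp1, Rps15, Rps2 and Rps29. Rplp1 had 430 and 416 CPM in Mettl3 cKO, against 311 and 317 CPM in Mettl3 control (log2 change 0.43 ± 0.03, SE; adjusted p = 7.99e-30, edgeR's quasi-likelihood test). Rplp0 had 593 and 592 CPM, against 501 and 478 CPM (0.27 ± 0.02; adjusted p = 1.23e-18, same test). Both stalk genes were higher in each cKO library than in either control. Rplp2, the partner of Rplp1, had 324 and 295 CPM in Mettl3 cKO, against 296 and 289 CPM in Mettl3 control, and these ranges overlapped. Its log2 change was 0.08 ± 0.03 (SE) and turned to -0.033 with upper-quartile scaling. Rpl12, which lies at the base of the stalk, had 262 and 263 CPM, against 225 and 216 CPM (0.25 ± 0.03). Exons of Rpl12 overlap Lrsam1 on the opposite strand.

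Rps2, at the entry of the mRNA channel, had 240 and 240 CPM in Mettl3 cKO, against 189 and 193 CPM in Mettl3 control (log2 change 0.33 ± 0.03, SE). Rps29, a small zinc-binding protein of the small subunit's head, had 114 and 124 CPM, against 96.7 and 93.9 CPM (0.32 ± 0.04). Rpl10l, an intronless paralog that replaces X-linked Rpl10 in mouse male germ cells, had 8.29 and 8.21 CPM, against 4.77 and 5.47 CPM (0.69 ± 0.14). None of these 3 overlapped between the groups. Rpl10l is a near copy of Rpl10, which had 122 and 122 CPM in Mettl3 cKO against 118 and 117 CPM in Mettl3 control, and reads of the pair may have been split or lost in the counting. The 7 members called lower, Rpl3, Rpl14, Rpl15, Rpl19, Rps14, Rps18 and Rps26, changed by -0.13 to -0.09. Rpl3, an RNA-binding protein near the catalytic centre, had 484 and 487 CPM in Mettl3 cKO, against 525 and 516 CPM in Mettl3 control (-0.10 ± 0.02). Without the filter on low counts its change was 0.005, and those of Rps14 and Rps18 were 0.01 and 0.009.

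**Figure D3:**
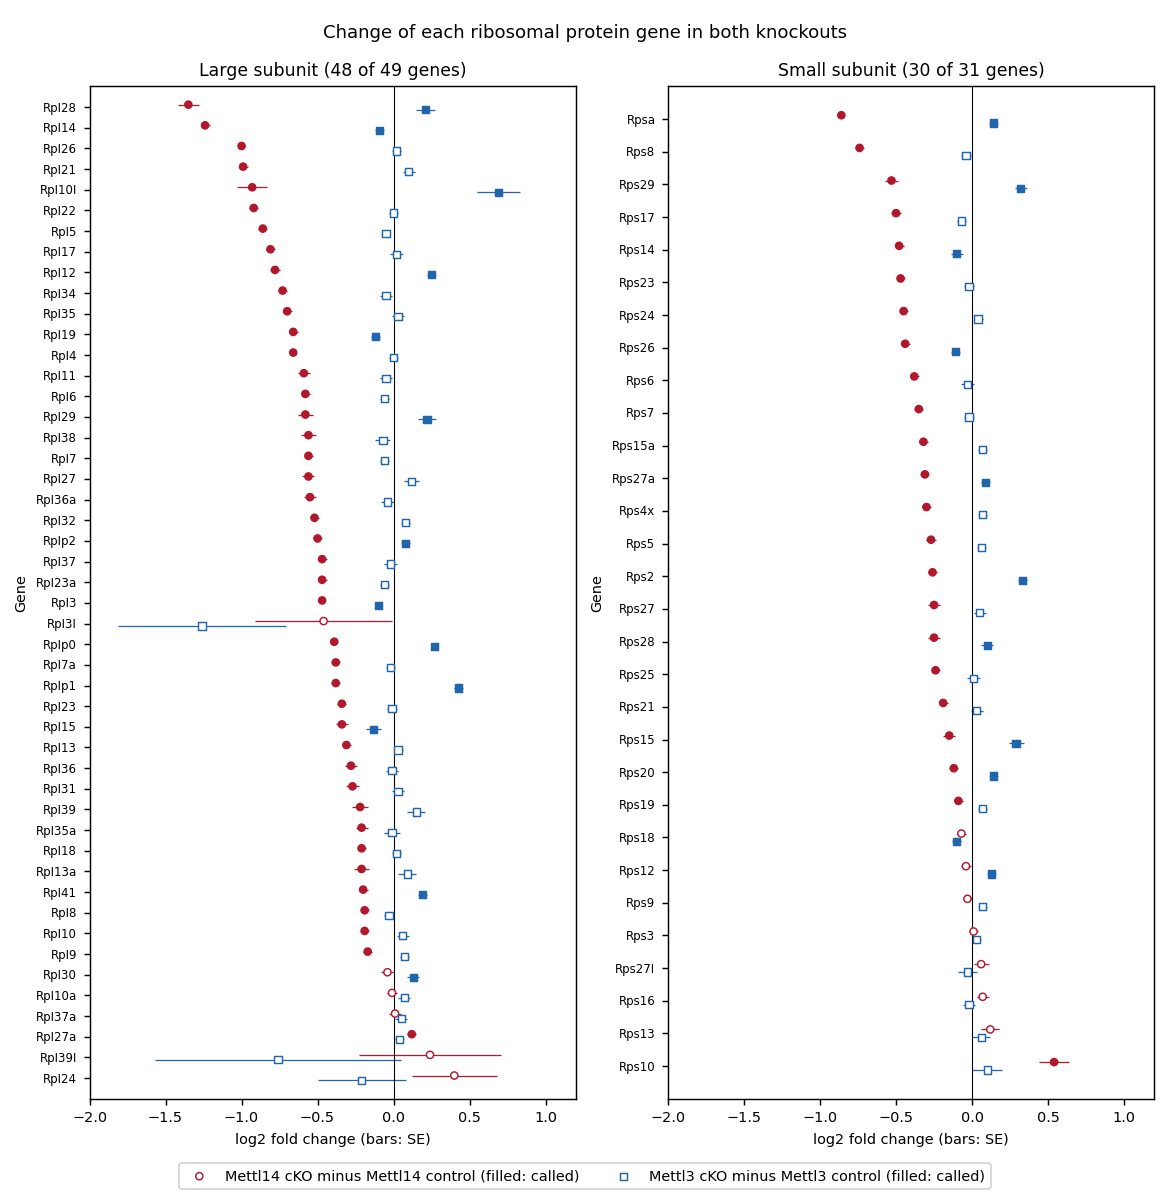
Log2 fold change with SE of 48 of the 49 large and 30 of the 31 small subunit genes, in Mettl14 cKO minus Mettl14 control (circles) and Mettl3 cKO minus Mettl3 control (squares); filled symbols were called at an adjusted p under 0.05 and genes are sorted by the Mettl14 change. Most circles lie left of 0 (65 of all 80 members were called lower), while most squares lie close to 0 (55 of all 80 were not called).

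The difference between the knockouts was tested itself, as the Mettl14 change minus the Mettl3 change. It was called lower for 67 members, at a background of 20.5% of all tested genes, and higher for 1, at a background of 12.7% (edgeR's quasi-likelihood test, adjusted p under 0.05). The median difference was -0.38 for the members and 0.02 for all tested genes. Of the abundant genes defined above, 55.1% were called lower, with a median of -0.18. Of the 69 members at that level 62 were called lower, with a median of -0.39. The large subunit had 43 lower and 0 higher (also 0 higher at an unadjusted p under 0.05, with DESeq2 and with limma-voom), and the small subunit 24 lower and 1 higher. The count of lower members was 52 with upper-quartile scaling and 55 at a minimum count of 50, and 52 of the 67 were called lower under every alternative. The member called higher, Rps10 (0.44 ± 0.14, SE), was lost in 5 of the 16 alternatives.

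The members fell into a few patterns over both knockouts. There were 43 lower in Mettl14 cKO and not called in Mettl3 cKO, 16 lower in Mettl14 cKO and higher in Mettl3 cKO, 6 lower in both and 10 called in neither, with the Mettl3 calls subject to the scaling as given above. The shares of all tested genes in these combinations were not counted, so the split is not shown to be particular to the members. Rpl10l differed most, with changes of -0.93 ± 0.10 in Mettl14 cKO and 0.69 ± 0.14 in Mettl3 cKO, a difference of -1.62 ± 0.18 (SE, adjusted p = 2.16e-14, edgeR's quasi-likelihood test). Its levels were 12 and 13.2 CPM in Mettl14 cKO, against 25 and 23.1 CPM in Mettl14 control. Rpl28 differed by -1.56 ± 0.09, and Rpl12, which had 413 and 424 CPM in Mettl14 cKO against 717 and 716 CPM in Mettl14 control, by -1.02 ± 0.04. Of the stalk, Rplp0 had 1346 and 1343 CPM in Mettl14 cKO, against 1761 and 1758 CPM in Mettl14 control. Rplp1 had 645 and 631 CPM, against 824 and 836 CPM, and Rplp2 had 391 and 407 CPM, against 560 and 566 CPM. All 3 stalk genes fell without overlap, by 0.39, 0.38 and 0.50 on the log2 scale, and their differences between the knockouts were -0.66, -0.81 and -0.58. Rps27a, which is made as a fusion with ubiquitin, changed by -0.31 ± 0.03 in Mettl14 cKO and 0.09 ± 0.03 in Mettl3 cKO, the second of which was -0.023 with upper-quartile scaling.

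By the members' median, the control cells of both lines differed more from each other than either knockout did from its control. In Mettl14 control, 77 members were called higher than in Mettl3 control, at a background of 33.6% of all tested genes, and 1 lower, at a background of 34.1% (edgeR's quasi-likelihood test, adjusted p under 0.05). The median log2 difference was 1.08, a 2.11-fold higher level, against -0.09 for all tested genes, and 46 members were at least 2-fold higher. How many of all tested genes reached 2-fold was not counted. Among the abundant genes defined above 73.4% were called higher, with a median of 0.50. The large subunit had a median of 1.34 and the small subunit 0.95. Of the 77, 73 were called higher under every alternative, with Rpl27a, Rpl39l and Rps29 among those lost. Rpl5 had 2091 and 2048 CPM in Mettl14 control, against 400 and 365 CPM in Mettl3 control (log2 difference 2.43 ± 0.03, SE). Rpl26 had 1365 and 1336 CPM, against 278 and 262 CPM (2.32 ± 0.03). Rpl17, a neighbour of the exit tunnel, had 450 and 439 CPM, against 88.9 and 91.5 CPM (2.30 ± 0.03). The member called lower was Rps10, with 15.5 and 13.0 CPM in Mettl14 control, against 17.2 and 16.7 CPM in Mettl3 control (-0.25 ± 0.10), and 9 of its 16 alternatives did not call it.

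**Figure D4:**
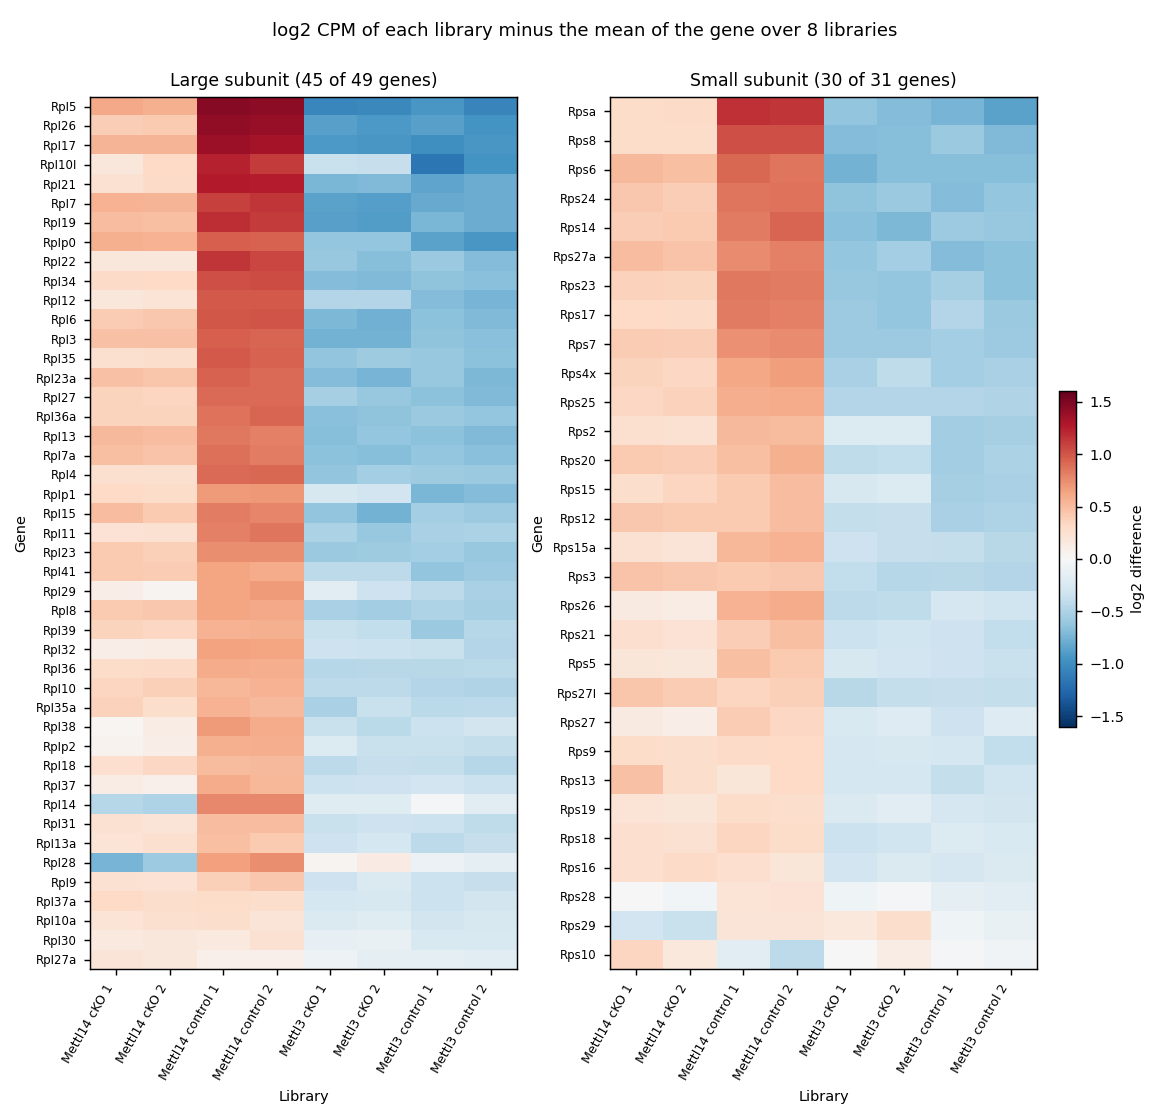
Log2 CPM of each library minus the gene's mean over the 8 libraries, for 45 large and 30 small subunit genes sorted by the difference between the controls; Rpl24, Rpl39l and Rpl3l are left out for low counts, and red is higher. Both Mettl14 control libraries are highest for most genes, the Mettl14 cKO libraries lie between them and the 4 libraries of the Mettl3 line, and Rpl28, Rpl14 and Rps29 are lowest in Mettl14 cKO.

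The comparison of the controls and that of Mettl14 cKO with its control share the Mettl14 control libraries. Beside it, stem cell markers were higher and fibroblast markers lower in Mettl14 control than in Mettl3 control: 8 of 9 stem cell markers were higher, and 17 of the 18 fibroblast markers tested were lower, with a median of -2.14. The 11 primitive endoderm markers (among them Gata6 and Sox17), none at 0, summed to 1921 and 1890 CPM in Mettl14 cKO, 1199 and 1206 in Mettl14 control, 3096 and 3063 in Mettl3 cKO, and 2822 and 2783 in Mettl3 control. In Mettl14 cKO, 8 of 9 stem cell markers were lower and 1 higher, 13 of 18 fibroblast markers were higher and 1 lower, and 4 of 10 primitive endoderm markers were higher and 0 lower. In Mettl3 cKO, 4 of 9 stem cell markers were lower and 1, Pou5f1, was higher. There 7 of 18 fibroblast markers were higher and 1 lower, and 4 of 10 primitive endoderm markers were higher and 1, Lama1, was lower. These marker counts stand beside the shares of all tested genes given above for each comparison. The part of these markers in the ribosomal protein results was not tested.

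The summed levels of mitochondrial mRNAs and of nuclear noncoding RNAs also differed between the groups. The 13 mRNAs of the mitochondrial genome, which a nuclear preparation should hold little of, summed to 6630 and 6651 CPM in Mettl14 cKO, 10215 and 10324 in Mettl14 control, 6905 and 7422 in Mettl3 cKO, and 5200 and 5493 in Mettl3 control. Of the 10 tested, 6 were lower and 1 higher in Mettl14 cKO, and 6 were higher in Mettl3 cKO. The 12 nuclear long noncoding RNAs, led by Malat1 and Neat1, summed to 34595 and 34013 CPM in Mettl14 cKO, 25309 and 25444 in Mettl14 control, 45785 and 45405 in Mettl3 cKO, and 38385 and 37667 in Mettl3 control. Their summed level was higher in both knockouts, but of the 12, 4 were called higher and 4 lower in Mettl14 cKO (median log2 change 0.08), and 3 higher and 3 lower in Mettl3 cKO (median -0.01). By contrast, the summed level of mitochondrial mRNAs was lower in Mettl14 cKO and higher in Mettl3 cKO. The part of these RNAs in the ribosomal protein results was not tested.

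Many snoRNAs inside the ribosomal protein genes rose in Mettl14 cKO, where most of their hosts fell. GENCODE M21 placed 56 snoRNAs on the same strand within 29 members, and 27 of them, in 15 hosts, passed the filter. All of the others but Gm23202 had no counted read in any library, Snord33, Snord68 and Snord15b among them. Whether they were not expressed or their reads were lost in the counting was not tested. In Mettl14 cKO 17 rose and 0 fell by edgeR's test, with 0 lower also at an unadjusted p under 0.05, with DESeq2 and with limma-voom, and 12 to 21 rose over the alternatives. They had a median log2 change of 0.80, while the median of their hosts was -0.47, and 26 of 27 changed more positively than their host. In Mettl3 cKO 3 rose, and 2 to 15 did over the alternatives, with a median of 0.24 against 0.00 for the hosts. The 2 Mettl3 control libraries themselves differed for some snoRNAs: Snord35a had 11.6 and 24.2 CPM, Snord83b 14.2 and 27.2, and Snora62 37.9 and 64.0. Others agreed, among them Snora21 with 164 and 171 CPM and Snord15a with 335 and 340. The 27 snoRNAs share libraries and hosts, so they are not independent readings. The difference between the knockouts was called higher for 7, and for 5 to 13 over the alternatives. Together the 56 took 0.185% and 0.173% of counts in Mettl14 cKO, against 0.073% and 0.0808% in Mettl14 control, and 0.0971% and 0.0998% in Mettl3 cKO, against 0.087% and 0.103% in Mettl3 control. Reads of a mature snoRNA and of the intron around it cannot be told apart in gene counts.

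Snord15a (chr7:99482785-99482932), a box C/D snoRNA in Rps3, had 564 and 539 CPM in Mettl14 cKO, against 250 and 265 CPM in Mettl14 control (log2 change 1.1 ± 0.03, SE; adjusted p = 4.26e-70, edgeR's quasi-likelihood test). Its host did not pass the test, at 0.01 ± 0.03. Snora21 (chr11:97781639-97781775), a box H/ACA snoRNA in Rpl23, had 483 and 437 CPM, against 284 and 291 CPM (0.68 ± 0.03), while Rpl23 fell. Snora62 (chr9:120130415-120130563) in Rpsa had 183 and 175 CPM in Mettl14 cKO, against 54.9 and 73.6 CPM in Mettl14 control (1.47 ± 0.25). For all 3 the groups did not overlap. In the Mettl3 line Snord15a had 351 and 355 CPM in Mettl3 cKO, against 335 and 340 CPM in Mettl3 control, a change of 0.06 that was not called. Between the controls only 3 of the 27 snoRNAs exceeded their host's difference: the hosts' median was 1.5 and that of the snoRNAs 0.43.

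**Figure D5:**
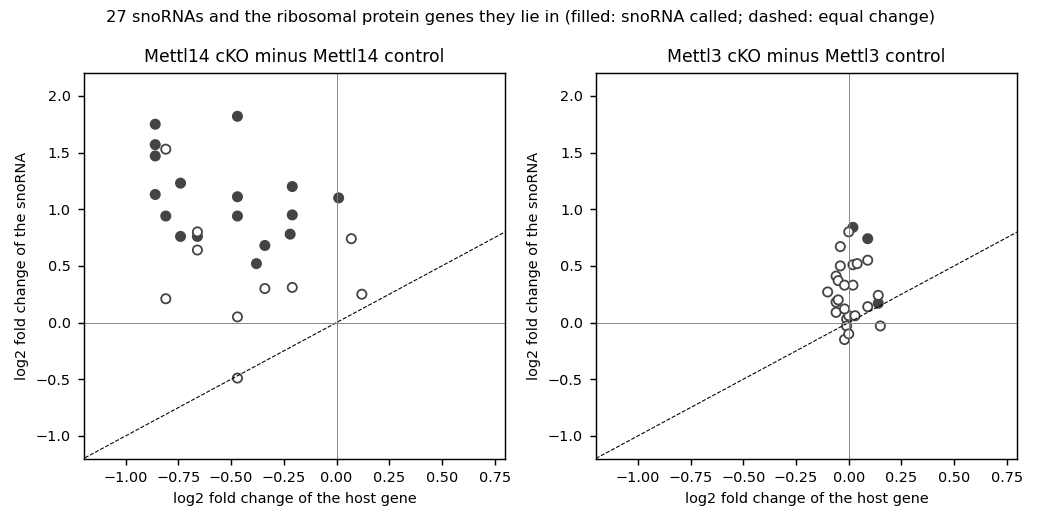
Log2 fold change of 27 snoRNAs (vertical) against that of the ribosomal protein gene each lies in (horizontal), for Mettl14 cKO minus Mettl14 control (left) and Mettl3 cKO minus Mettl3 control (right); filled points are snoRNAs called at an adjusted p under 0.05 and the dashed line marks equal change. In the left panel 26 of 27 points lie above the line and 17 are filled, and in the right panel 23 lie above it and 3 are filled.

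The members' structure did not order their changes strongly. Across members, Spearman's rho between the log2 change in Mettl14 cKO and exon length was 0.06, with gene span -0.08, with the number of introns -0.04 and with the mean log2 CPM -0.31, where change and level come from the same libraries. Reads in introns of a member's main coding transcript are counted only where an annotated exon of another of its transcripts covers them. Retained introns are 1 such case, but Rps27a, with 80.2% of its intron bases counted, has no annotated transcript of that type. The 26 members with at least 60% of their intron bases so counted had a median change of -0.22 in Mettl14 cKO, and the 22 members with under 20% had -0.43. The 29 snoRNA hosts had a median of -0.47 and the 51 other members -0.34.

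The m6A writer prefers the sequence GGACT among the sites it methylates. In the longest protein-coding transcript of each gene, read on the transcribed strand, members held 0.837 GGACT per kilobase and 45 of 80 (56.2%) held at least 1. The 15730 other tested protein-coding genes held 1.09 per kilobase, and the 1133 of them with transcripts of at most 1200 bases held 1.3 per kilobase, with at least 1 in 65.5%. Members with GGACT had a median log2 change of -0.38 in Mettl14 cKO and 0.03 in Mettl3 cKO, and the 35 without had -0.34 and 0.03. A match is not a measured m6A site.

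Related genes outside the symbol rule were read by lists. Their counts stand beside the shares of all tested genes given above. These were 22.4% lower and 18.0% higher in Mettl14 cKO, and 5.78% lower and 15.1% higher in Mettl3 cKO. Of 8 further ribosomal proteins and close paralogs, 3 fell and 1 rose in Mettl14 cKO. Their median log2 change there was -0.02, against -0.37 for the members. In Mettl3 cKO 0 were called by edgeR, and 0 also at an unadjusted p under 0.05, with DESeq2 and with limma-voom. Over its 17 alternatives 0 to 4 were called higher and 0 to 2 lower. Fau, made as a fusion with a ubiquitin-like protein, fell by 0.75 ± 0.03 on the log2 scale, and Rps3a1 by 0.36. Rack1, a scaffold of the small subunit's head, changed by -0.03 and was not called.

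Of 17 translation factors and other mRNAs of the TOP class, 16 fell in Mettl14 cKO, with a median of -0.51, and 7 rose and 5 fell in Mettl3 cKO, with a median of 0.04. Over the 17 alternatives the Mettl3 counts were 3 to 11 higher and 0 to 8 lower. Npm1, a nucleolar chaperone of ribosome assembly, changed by -1.75 ± 0.02 in Mettl14 cKO and 0.30 ± 0.03 in Mettl3 cKO, and Pabpc1, the poly(A)-binding protein, by -1.2 ± 0.02 and 0.32 ± 0.02. Eif3f, a subunit of an initiation factor, changed by -1.33 in Mettl14 cKO and was not called in Mettl3 cKO. Eef2, the elongation factor, was called in neither.

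Of 36 genes of ribosome biogenesis and RNA polymerase I, 24 fell and 4 rose in Mettl14 cKO, with a median of -0.25, and 6 rose and 7 fell in Mettl3 cKO, with a median of 0.02. Tcof1, a nucleolar factor of ribosomal RNA transcription, fell by 1.34 ± 0.03 in Mettl14 cKO on the log2 scale, and Ddx21, a helicase, by 0.60 ± 0.03. Of 77 mitochondrial ribosomal proteins tested, 36 fell and 6 rose in Mettl14 cKO, with a median of -0.21, and 1 fell and 13 rose in Mettl3 cKO. These Mettl3 counts varied over the 17 alternatives, at 3 to 16 higher and 1 to 16 lower for the biogenesis genes, and at 4 to 29 higher and 0 to 5 lower for the mitochondrial ribosomal proteins. Of 73 nuclear-encoded respiratory chain subunits tested, 38 fell and 9 rose in Mettl14 cKO, with a median of -0.19. The lower shares were 46.8% for the mitochondrial ribosomal proteins and 52.1% for the respiratory chain subunits. Of the abundant genes defined above 55.6% were lower, though the lists were not matched to them for level. Between the controls, Mettl14 control was higher than Mettl3 control for 17 of 17 TOP mRNAs, 31 of 36 biogenesis genes and 57 of 77 mitochondrial ribosomal proteins. The last 2 shares were 86.1% and 74.0%, at a background of 33.6% of all tested genes and 73.4% of the abundant genes.

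Copies of the members in the genome were checked, since 59 members have named pseudogenes, 291 in all, and reads shared with them may have been dropped or split. The 301 annotated pseudogenes with an Rpl or Rps symbol took 0.0277% and 0.0277% of counts in Mettl14 cKO, 0.027% and 0.0273% in Mettl14 control, 0.0229% and 0.0218% in Mettl3 cKO, and 0.0223% and 0.0227% in Mettl3 control. These shares are small beside those of the members and nearly equal between each cKO and its control, and reads left uncounted because they matched several places would not appear in them. Of the 72 pseudogenes tested, 9 were lower and 5 higher in Mettl14 cKO, with a median of -0.24, and 0 were lower and 1 higher in Mettl3 cKO, with a median of 0.04. There were also 15 members, all but Rps28 with named pseudogenes too, that overlap exons of an opposite-strand gene of at least 1 CPM, Rpl28, Rpl12, Rpl5, Rpl15, Rps2 and Rps27a among them.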

How the data were processed

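Nuclear RNA of 8 libraries in 4 groups of 2 was analysed, with groups and replicate numbers taken from the sample titles. Each deposited table holds raw counts per gene, which the authors made with CASAVA, Trimmomatic 0.38, HISAT2 2.1.0 and HTSeq on mm10, per the submitters' processing notes. Neither the annotation release nor the strand setting nor the handling of multiply mapped reads is given in the sources used here. Symbols came from GENCODE M21 by gene ID, versions ignored, and 37 of 54446 genes had no entry.

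Genes were kept with filterByExpr at a minimum count of 10. Tests were made in edgeR 4.0.16 (R 4.3.3), with TMM scaling, glmQLFit in its robust form and glmQLFTest, in 1 fit of 8 libraries with 4 group means, 4 residual degrees of freedom and a common dispersion of 0.000571. The threshold for a call was 0.05 after Benjamini-Hochberg adjustment over all 21782 tested genes. DESeq2 1.42.0, limma 3.58.1 (voom), other scalings and filters, fits of 1 line, a replicate block and leaving out each library were the alternatives. Samples of a group correlated at r of 0.9957 to 0.9969 and differed by more than sampling noise (chi-square over its degrees of freedom 1.42 to 2.05), and all were kept as separate. The precision of a value is given by its SE and by total counts of 17235889 to 20086128.

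Start windows and snoRNA positions are on GRCm38 coordinates. The members and gene lists were chosen with earlier results of these data known. Members named were, per comparison, up to 6 called members with the lowest and the highest change, the genes with the highest and lowest level per kilobase, those called in opposite directions with the largest difference, the stalk genes, Rpsa, Rps27a and paralogs, and up to 2 genes per list with the smallest p. Rpl11, Rpl10, Rps3, Rps9, Rpl10a and the members listed by name in a count were added after their values were seen, as were Rps3a1, Rack1, Eif3f and Eef2 from the lists and the 3 snoRNAs. Some results for single genes, 2 members among them, are not reported here.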

Additional observations from a re-analysis of the deposited data

Results flagged for a closer look

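The knockout effects on ribosomal protein mRNAs differed between Mettl14 and Mettl3 by the test of the difference itself, the Mettl14 change minus the Mettl3 change (edgeR's quasi-likelihood test). By this test 67 members were lower and 1 was higher. The log2 differences of the stalk genes were -0.66 for Rplp0, -0.81 for Rplp1 and -0.58 for Rplp2, and that of Rpl12 at the stalk's base was -1.02. Other members of the large subunit had -1.62 for Rpl10l, -1.56 for Rpl28, -1.15 for Rpl14, -1.08 for Rpl21 and -1.02 for Rpl26. In the small subunit the differences were -0.99 for Rpsa, -0.85 for Rps29, -0.40 for Rps27a and 0.44 for Rps10. Fibroblast and stem cell markers and mitochondrial mRNAs also changed by different amounts in the 2 knockouts, and their part in these differences was not tested.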

How the results depend on the processing

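The members' medians for Mettl14 cKO and for the controls kept their direction under the alternatives run, but their size varied. For Mettl14 cKO the median ran from -0.5 to -0.42 in the large subunit and from -0.29 to -0.2 in the small subunit. Between the controls it ran from 1.12 to 1.48 in the large subunit and from 0.74 to 1.09 in the small subunit. Leaving out 1 library at a time gave 62 to 65 members lower and 1 to 3 higher for Mettl14, 67 to 68 lower and 0 to 2 higher for the difference between the knockouts, and 76 to 77 higher and 0 to 1 lower for the controls. For Mettl3 it gave 24 to 31 higher and 0 to 6 lower, against 18 and 7 with all libraries, and the cause was not tested. Without Mettl14 control replicate 1 the 2 members higher in Mettl14 cKO became 1. The member higher by the difference was lost without Mettl14 cKO replicate 1, Mettl14 control replicate 2 or Mettl3 cKO replicate 1, and 2 were higher without Mettl3 cKO replicate 2.

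With DESeq2 1 member was higher in Mettl14 cKO, 11 were higher and 4 lower in Mettl3 cKO, 0 were higher by the difference and 0 lower between the controls. At a minimum count of 50 the counts were 6 higher for Mettl14, 9 higher and 26 lower for Mettl3, and 7 higher for the difference. With upper-quartile scaling they were 4 higher, 8 higher and 34 lower, and 7 higher. With no filter on low counts Mettl3 had 49 higher and 0 lower, and the difference had 0 higher and the controls 0 lower. With the 4 libraries of a line alone, Mettl14 had 5 higher and Mettl3 11 higher and 11 lower. The Mettl3 median was -0.046 at a minimum count of 50, -0.006 with the line alone and -0.083 with upper-quartile scaling, and the changes of Rpl3, Rps14 and Rps18 were 0.005, 0.01 and 0.009 with no filter, those of Rplp2 and Rps27a -0.033 and -0.023 with upper-quartile scaling. Upper-quartile scaling moved the median of all tested genes to -0.086 for Mettl3, 0.174 for the difference and -0.308 for the controls. With mitochondrial genome genes left out of the total, the members' share was 2.46% in Mettl14 cKO, 3.05% in Mettl14 control, 1.51% in Mettl3 cKO and 1.54% in Mettl3 control. With the other ribosomal proteins added, the members' share was 2.57% in Mettl14 cKO, 3.11% in Mettl14 control, 1.57% in Mettl3 cKO and 1.61% in Mettl3 control.

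Same-numbered samples of different groups deviated together at r of -0.0289 to 0.0977, with the highest value between Mettl14 control and Mettl3 control. Such a correlation over many genes shows no strong pairing by number, but it cannot exclude one that touches some genes. With the replicate number as a block, 65 members were lower and 2 higher in Mettl14 cKO, 18 higher and 7 lower in Mettl3 cKO, 68 lower and 1 higher by the difference, and 77 higher and 1 lower between the controls.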
